A study of Mus musculus with 30 samples.

Results

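Wnt ligands are secreted signalling proteins, and Wls (Wntless) is the membrane carrier that takes them from the secretory pathway to the cell surface. The 10 genes described here are the 9 ligand genes Wnt2, Wnt2b, Wnt4, Wnt5a, Wnt5b, Wnt6, Wnt9a, Wnt10b and Wnt11 together with Wls. They were chosen by name, and all 10 symbols matched 1 identifier each among the 35120 genes of the count table, which holds 19 Wnt ligand genes. The study sequenced messenger RNA from mouse white fat after separation with collagenase into floating adipocytes and pelleted stromal-vascular cells (SVC), a mixed fraction of progenitors, vessel cells, immune cells and mesothelium.

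There were 6 groups and 30 libraries. The male adipocyte groups held 6 control libraries with the genotype Ctnnb1flfl (Ctnnb1fl/fl, floxed alleles of the β-catenin gene) and 5 with the label Ctnnb1KO (Ctnnb1AdKO). The female adipocyte groups held 6 of each genotype, and the male SVC groups held 3 control and 4 Ctnnb1KO libraries. The labels name the epididymal and the posterior subcutaneous depot for every library, females included. Age, strain, the Cre line behind the deletion and the deleted exons are absent from the labels, which also do not say that each replicate number is a separate mouse, so p-values measure the spread between these libraries. Total counts were 20484836 to 22209603 per library.

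Whole-gene counts of the targeted gene did not separate the genotypes. Ctnnb1 was at 308 to 341 CPM (counts scaled to the library total) in male control adipocytes and at 308 to 368 CPM in the libraries labelled Ctnnb1KO. The ranges were 291 to 359 and 283 to 367 CPM in females, and 442 to 553 and 353 to 748 CPM in SVC. The counts are per gene and the deleted exons are not named, so the loss of single exons was not tested. For that reason "knockout-labelled" below refers to the label. The fractions carried their markers: the summed level of 9 adipocyte genes was 42713 to 72936 CPM in adipocyte libraries and 1005 to 2395 CPM in SVC, and that of 11 progenitor genes was 460 to 1348 CPM and 8132 to 14464 CPM.

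A Wnt protein is made active by Porcn, an enzyme of the endoplasmic reticulum that attaches a fatty acid to a conserved serine. Wls then binds the lipid-bearing ligand, escorts it out of the cell and is returned by the retromer complex. Outside the cell, ligands bind Frizzled receptors. With Lrp5 or Lrp6 they stabilise β-catenin, while Wnt5a and Wnt11 are best known for signalling without it. In mouse fat the pathway is known for holding back adipocyte formation, and Wnt10b is the ligand most often named in that role.

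The lipid-bearing stretch is shown because it is the feature that makes each of these ligands cargo for Wls. The 24 bases below encode Cys-His-Gly-any-Ser-Gly-Ser-Cys in the longest GENCODE M21 coding sequence of each gene, and the capitals mark the codon of the serine known to carry the lipid.
Wnt2: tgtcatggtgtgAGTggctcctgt
Wnt2b: tgtcacggtgtgAGTggctcctgt
Wnt4: tgtcacggggtgTCGggctcctgc
Wnt5a: tgtcatggagtgTCTggctcctgt
Wnt5b: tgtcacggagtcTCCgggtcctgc
Wnt6: tgccatgggcttTCGggttcctgc
Wnt9a: tgccatggtgtgTCTggctcctgc
Wnt10b: tgccatggaacgTCAggcagctgc
Wnt11: tgccatggggtgTCTggctcctgc
An in-frame search of 21866 protein-coding genes found this 8-codon pattern in 19, and all 19 were Wnt genes. Among the 9 ligands 5 different serine codons were used, with AGT in Wnt2 and Wnt2b alone. The genes lie on chromosomes 6 (Wnt2, Wnt5b), 3 (Wnt2b, Wls), 4 (Wnt4), 14 (Wnt5a), 1 (Wnt6), 11 (Wnt9a), 15 (Wnt10b) and 7 (Wnt11).

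Wls was the highest of the 10 genes per unit of length in all 3 control groups. In CPM per kilobase of exon, the scale used here to compare genes, Wls stood at 13.5 ± 0.343 (SD, n = 6) in male control adipocytes, 13.5 ± 0.926 (n = 6) in female control adipocytes and 16.3 ± 0.957 (n = 3) in control SVC. Wnt5a was the highest ligand in adipocytes, at 1.31 ± 0.0918 CPM per kilobase in male and 1.75 ± 0.380 in female controls. Wnt5b, Wnt11 and Wnt9a followed in both sexes, at 0.596 to 0.884 CPM per kilobase, and these neighbours overlapped between libraries. Wnt2b came next, at 0.485 ± 0.437 in males and 0.245 ± 0.132 in females, and it too overlapped Wnt9a. Wnt2, Wnt4, Wnt6 and Wnt10b were at or below 0.0825 CPM per kilobase in control adipocytes of either sex.

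The order was different in SVC. Wnt11, a ligand of cell movements in the embryo, was the highest ligand there, at 13.4 ± 2.54 CPM per kilobase in controls (n = 3) and 14.9 ± 5.58 in knockout-labelled libraries (n = 4), where it overlapped Wls. Wnt5b, Wnt5a, Wnt2b and Wnt10b formed the next tier in control SVC, at 4.31 to 6.30 CPM per kilobase, with overlap between each pair of neighbours. Wnt9a stood at 2.16 ± 0.165, and Wnt6, Wnt4 and Wnt2 at 0.468 to 1.11 CPM per kilobase. In knockout-labelled SVC Wnt2b moved from the fifth to the seventh place, at 0.897 ± 0.0355 CPM per kilobase.

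**Figure D1:**
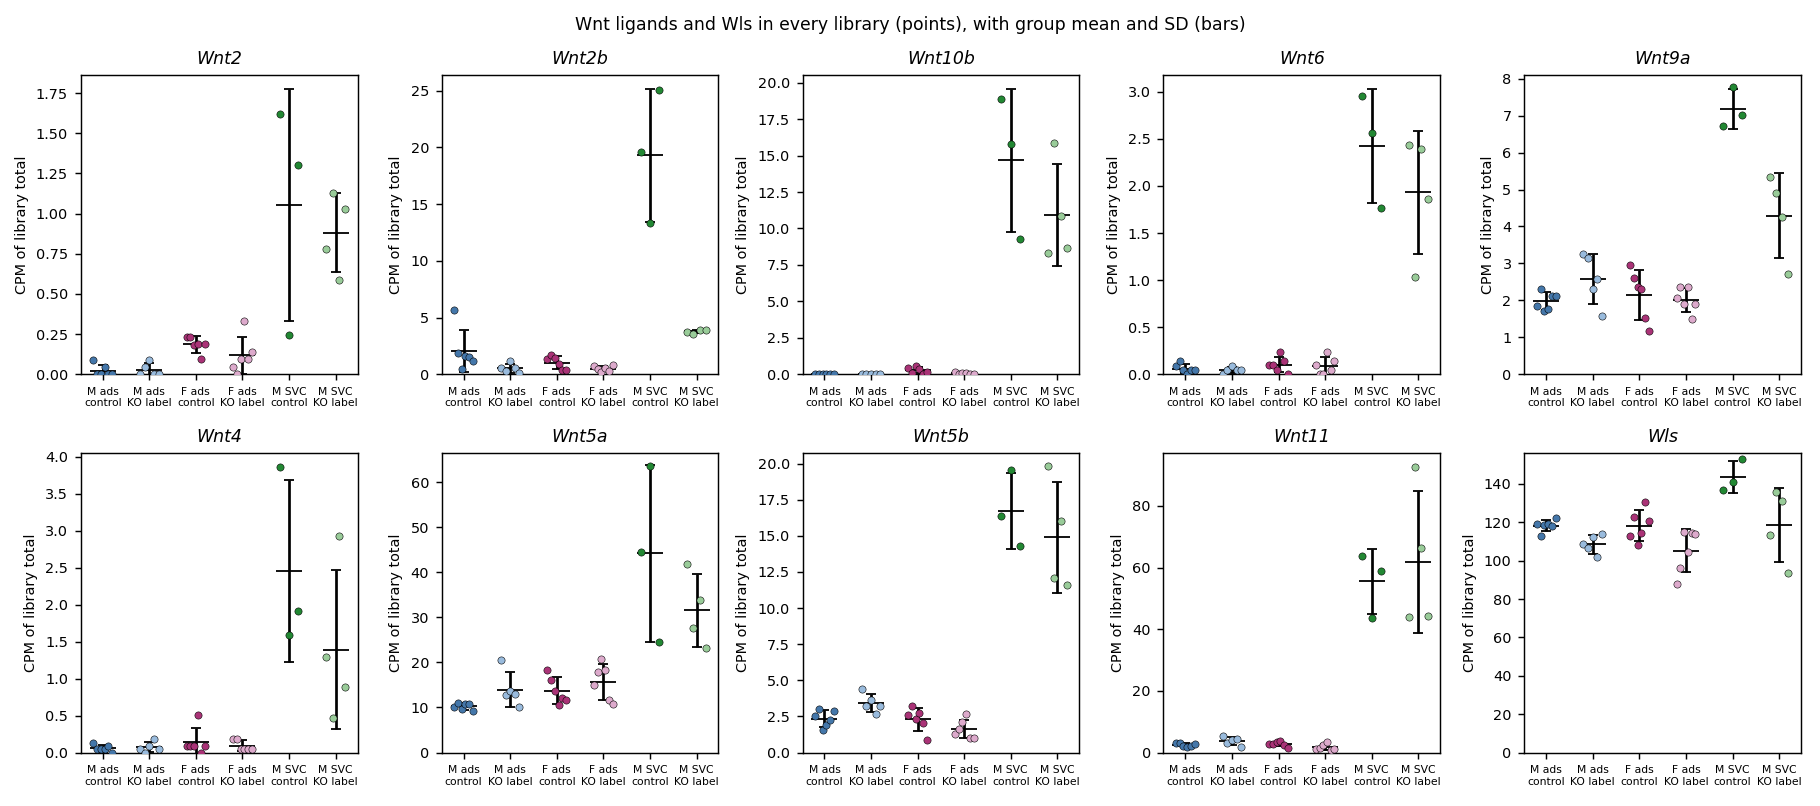
CPM of the library total for each of the 10 genes (vertical axis, linear, from 0) in the 6 groups (M, male; F, female; ads, adipocytes; KO label, knockout-labelled); points are libraries and bars the group mean and SD. Wnt2b in control SVC (13.3 to 25.0 CPM) lies above knockout-labelled SVC (3.58 to 3.91 CPM), and Wnt10b is at 0 in all 11 male adipocyte libraries.

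The first comparison asks which of these genes are read in adipocytes rather than in SVC, in males. In control mice 9 of the 10 genes were lower in adipocytes at an adjusted p below 0.05, all 9 of them ligands (edgeR quasi-likelihood F-test, Benjamini-Hochberg over 17251 genes). Of all genes 77.1% were called, with 44.2% lower and 32.8% higher in adipocytes, so a call by itself was common. The median log2 difference over the 10 genes was -3.35, with Wnt10b taken either as fitted or at its bound, against -0.29 over all genes tested. Wnt2, Wnt4, Wnt6 and Wnt10b passed the filter on low counts here only through their SVC libraries and could only come out lower. The count of 9 and the median include these genes, so neither tests their direction. Wls differed by 0.25 (SE 0.140, adjusted p = 0.107). The fit took all male libraries as independent, and a hint of pairing between fractions is described in the closing section on processing.

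Wnt10b, the anti-adipogenic ligand, had the widest gap. It had 0 counts in each of the 6 male control and 5 male knockout-labelled adipocyte libraries. The 3 control SVC libraries held 397, 327 and 200 counts, or 18.9, 15.8 and 9.31 CPM. The 4 knockout-labelled SVC libraries held 181, 337, 223 and 185 counts, or 8.31, 15.9, 10.9 and 8.63 CPM. The mean over all 7 SVC libraries was at least 1013.5-fold higher, computed against 3 counts over all male adipocyte libraries together (0.0124 CPM), a limit that covers counting error only.

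Wnt2, Wnt4, Wnt6 and Wnt11 were also far lower in adipocytes. Of these, Wnt2, Wnt4 and Wnt6 passed the filter only through their SVC libraries, so their p-values do not test the direction. Wnt2, which acts with Wnt2b in the mouse lung, had a log2 difference of -4.74 (SE 0.819, adjusted p = 5.56e-05). It stood at 1.62, 0.242 and 1.30 CPM in control SVC, and 4 of the 6 control adipocyte libraries had no count. Without adipocyte control 1, which held 2 of the 3 Wnt2 counts of its group, the difference was -5.72 (adjusted p = 3.48e-05). Wnt4, a ligand of kidney and reproductive tract development, had a difference of -4.67 (SE 0.669, adjusted p = 7.20e-06), with 3.86, 1.60 and 1.91 CPM in control SVC. Wnt6, which like Wnt10b restrains mouse adipocyte precursors, had one of -4.66 (SE 0.503, adjusted p = 2.46e-07), with 2.95, 2.56 and 1.77 CPM in control SVC. In male control adipocytes both Wnt4 and Wnt6 had 0 to 3 counts per library. That of Wnt11 was -3.95 (SE 0.295, adjusted p = 2.69e-09), at 63.8, 43.7 and 58.9 CPM in control SVC against 1.81 to 2.99 CPM in adipocytes.

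The remaining ligands kept a larger share of their SVC level in adipocytes. Wnt2b had a log2 difference of -2.74 (SE 0.566, adjusted p = 0.000317) and Wnt5b, the close relative of Wnt5a, one of -2.29 (SE 0.220, adjusted p = 6.05e-08). That of Wnt5a was -1.54 (SE 0.228, adjusted p = 1.03e-05), at 44.5, 63.6 and 24.5 CPM in control SVC against 9.13 to 11.0 CPM in adipocytes. Wnt9a, a ligand of joint formation, had one of -1.32 (SE 0.256, adjusted p = 0.000179), at 6.72, 7.78 and 7.03 CPM against 1.71 to 2.31 CPM. All control SVC values of these ligands lay above all control adipocyte values. Without adipocyte control 1 the difference of Wnt2b was -3.37 (adjusted p = 1.35e-05).

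As a share of the control SVC mean in CPM, adipocytes held 82.4% for Wls, 27.6% for Wnt9a, 23.1% for Wnt5a, 14.0% for Wnt5b, 10.6% for Wnt2b, 4.46% for Wnt11 and 2.15 to 2.49% for Wnt2, Wnt4 and Wnt6. The same share for summed markers was 27.6% for endothelium, 23.2% for mural cells, 10.2% for macrophages, 8.21% for mesothelium, 4.22% for progenitors and 1.24% for lymphocytes. Wnt10b, at 0 counts, was below every one of these marker shares. Transcripts of SVC cell types were present in the adipocyte libraries, and their part in the levels of the other ligands was not tested. In these bulk fractions, fewer cells of a type and less RNA per cell cannot be told apart.

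**Figure D2:**
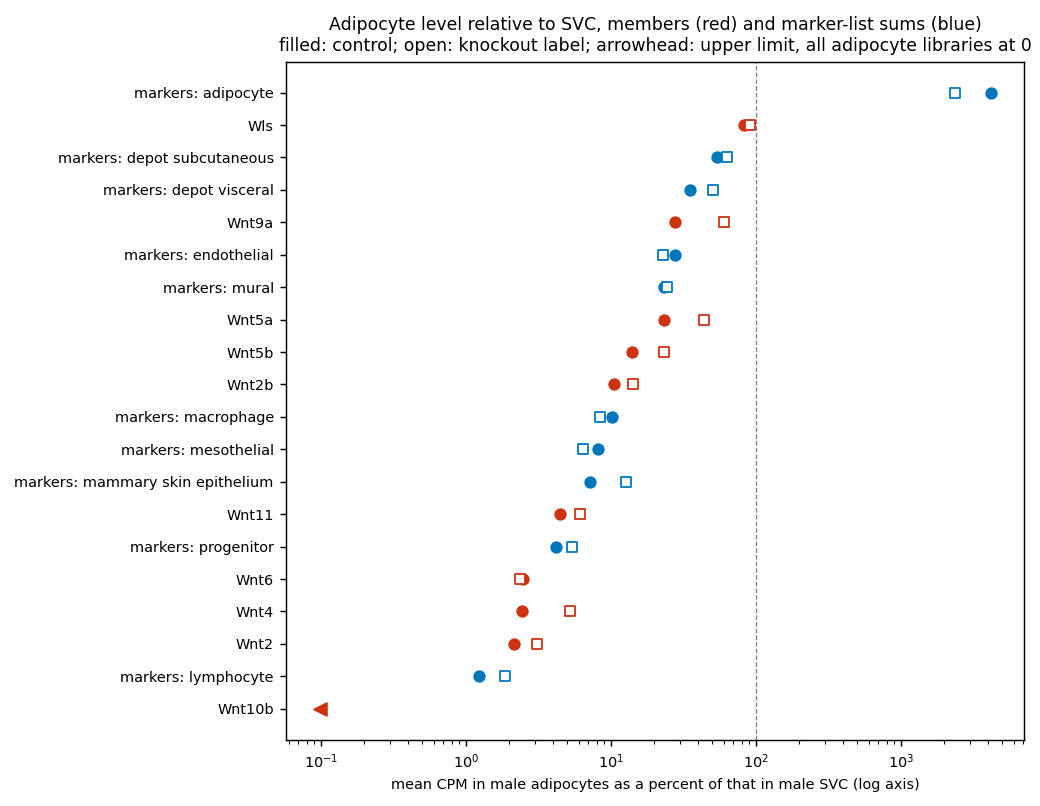
Mean CPM in male adipocytes as a percent of the male SVC mean (horizontal log axis), for the members in red and summed marker lists in blue; filled circles are controls and open squares knockout-labelled libraries. Wls lies near the line of equality at 82.4%, the other members at 27.6% or less in controls, the arrowhead is the upper limit for Wnt10b, and epididymis markers are not drawn.

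In the knockout-labelled males 8 of the 10 genes, all ligands, were lower in adipocytes and 1, Wls, was called higher under TMM scaling. Of 17251 genes 76.5% were called, 44.7% lower and 31.8% higher. The median over the 10 genes was -2.99 on the log2 scale. As in controls, Wnt2, Wnt4, Wnt6 and Wnt10b passed the filter only through SVC. Wnt9a, at 5.33, 4.90, 4.25 and 2.71 CPM in SVC against 1.58 to 3.26 CPM in adipocytes, differed by -0.31 (SE 0.251, adjusted p = 0.262), and it was called without SVC library 4 (-0.51, adjusted p = 0.0365) or with library-total scaling (-0.74, adjusted p = 0.00905). Wnt5a differed by -0.75 (SE 0.223, adjusted p = 0.00565) and Wnt5b by -1.68 (SE 0.218, adjusted p = 2.34e-06). The difference of the genotype effect between fractions was called for 0 of 10 members and 0% of 17251 genes by edgeR. At an unadjusted p below 0.05 there were 2 members (Wnt9a, 1.00, SE 0.364, adjusted p = 0.686, and Wnt5a, 0.79, SE 0.324, adjusted p = 0.730) and 1149 genes. DESeq2 called 23 genes there and 0 members.

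The fraction result for Wls depended on the scaling. Wls was at 113 to 122 CPM in control adipocytes and at 137, 141 and 153 CPM in control SVC, so its share of all counts was lower in adipocytes. TMM scaling, which corrects for a few very abundant genes, gave +0.25 in controls and +0.31 (SE 0.132, adjusted p = 0.0426) in knockout-labelled males. Scaling by the library total gave -0.28 (adjusted p = 0.0117) and -0.13 (adjusted p = 0.202). The median of all genes moved by -0.56 and -0.45 between these scalings. The call in knockout-labelled males was also lost with DESeq2 (adjusted p = 0.158) and without adipocyte library 2, 3 or 5 or SVC library 1 or 4 (adjusted p of 0.0574 to 0.164). In controls, leaving out SVC library 3 gave 0.43 (adjusted p = 0.0191). No direction is therefore given for Wls.

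The genotype comparison in SVC asks whether the stromal fraction of the knockout-labelled males differs. No member was called by edgeR (0 of 10, with 0% of 16404 genes called), and 2 members and 429 genes had an unadjusted p below 0.05. DESeq2 called 65 genes and 1 member, Wnt2b. The median of the 10 genes was -0.32 against 0.04 over all genes, and 9 of the 10 estimates were below 0. Progenitor markers lay on the same side, with all 11 estimates below 0, 0 called, a median of -0.30 and sums of 10864 to 14464 CPM in control and 8132 to 11432 CPM in knockout-labelled SVC, and their part in the members' values was not tested.

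Wnt2b, a ligand of the β-catenin branch, had the smallest p of all 16404 genes in SVC. It stood at 19.6, 13.3 and 25.0 CPM in the 3 control libraries (411, 275 and 538 counts) and at 3.72, 3.58, 3.91 and 3.87 CPM in the 4 knockout-labelled ones (81, 76, 80 and 83 counts). The knockout-labelled mean was 19.5% of the control mean. The log2 difference was -2.35 (SE 0.285, unadjusted p = 7.52e-05, adjusted p = 0.465 by edgeR), and -2.30 (SE 0.301, adjusted p = 1.65e-10) by DESeq2. Leaving out 1 library at a time gave -2.52 to -1.996, with edgeR adjusted p of 0.368 to 1.00. Without SVC control 1, a library with 3189 CPM of epididymis markers where the others had 0.195 to 75.7, it was -2.41.

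Mesothelial markers moved in the same direction as Wnt2b. The summed level of 12 genes of the serous lining of visceral fat was 782, 339 and 647 CPM in control SVC and 331, 134, 466 and 153 CPM in knockout-labelled SVC. Of the 12, 11 estimates were below 0 and 0 were called by edgeR. The lining's urothelial-type plaque genes Upk1b (-2.89, SE 0.415, adjusted p = 0.511) and Upk3b (-2.66, SE 0.435, adjusted p = 0.737) had estimates of similar size to that of Wnt2b. Krt19 (-0.44, SE 0.867), Wt1 (-0.43, SE 0.270) and Krt18 (-0.30, SE 1.09) were nearer to 0. Krt8, a keratin also made by other epithelia, was at 0.30 (SE 1.20). Per 100 CPM of the mesothelial sum, Wnt2b stood at 2.50 to 3.92 CPM in control and 0.838 to 2.68 CPM in knockout-labelled SVC, and these ranges overlapped. Adipocyte markers differed too, at 1005 to 1639 CPM in control and 1865 to 2395 CPM in knockout-labelled SVC. The part of either cell type in the Wnt2b difference was not tested.

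**Figure D3:**
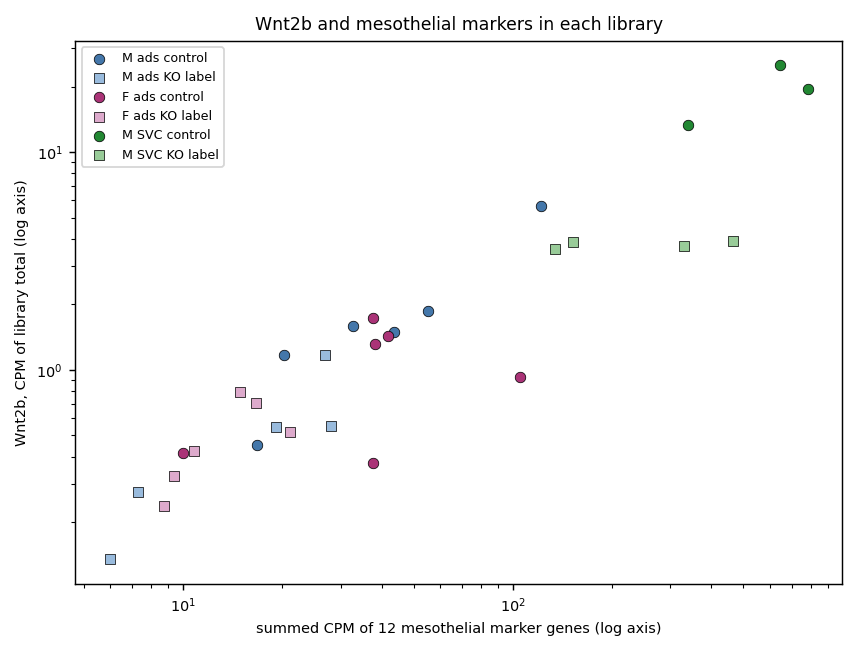
Wnt2b in CPM (vertical log axis) against the summed CPM of 12 mesothelial marker genes (horizontal log axis), 1 point per library, circles for control and squares for knockout-labelled. Adipocyte libraries high in markers are high in Wnt2b, with female controls 4 and 6 low for their marker sum, and knockout-labelled SVC (3.58 to 3.91 CPM) lies below control SVC (13.3 to 25.0 CPM).

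The other members differed less in SVC. Wnt9a was at 6.72 to 7.78 CPM in control and 2.71 to 5.33 CPM in knockout-labelled libraries, a difference of -0.71 (SE 0.295, unadjusted p = 0.0470, adjusted p = 0.968). Wls stood at 137 to 153 CPM against 93.8 to 136 CPM (-0.25, SE 0.188, adjusted p = 0.968). Wnt4 (-0.78, SE 0.614), Wnt5a (-0.43, SE 0.309), Wnt10b (-0.35, SE 0.323), Wnt6 (-0.29, SE 0.345), Wnt2 (-0.22, SE 0.621) and Wnt5b (-0.14, SE 0.225) overlapped between genotypes, with adjusted p of 0.968 or above. Wnt11 (0.19, SE 0.331, adjusted p = 0.968) was the member with a positive estimate, and its knockout-labelled libraries spread from 43.8 to 92.6 CPM.

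The genotype comparison in adipocytes covered 6 members that passed the filter on low counts, Wnt2b, Wnt9a, Wnt5a, Wnt5b, Wnt11 and Wls. None was called by edgeR in males (0 of 6, with 0.0703% of 14227 genes called), where 3 members and 1861 genes had an unadjusted p below 0.05 and DESeq2 called 1 member. None was called in females (0 of 6, 0.471% of genes), where 1 member and 1469 genes had an unadjusted p below 0.05 and DESeq2 called 0 members. The mean of both effects gave 0 of 6 (0.759% of genes), with 3 members and 2137 genes at an unadjusted p below 0.05 and 1 member called by DESeq2. DESeq2 called more genes than edgeR in each of these comparisons, so a call by DESeq2 was less rare. Its gene counts are given in the closing section on processing. These comparisons share libraries, and their values are given side by side.

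Wnt2b was again the tested member with the largest genotype difference in male adipocytes. Controls stood at 5.65, 1.86, 0.450, 1.59, 1.496 and 1.17 CPM and knockout-labelled libraries at 0.551, 0.274, 1.17, 0.545 and 0.135 CPM. All 5 knockout-labelled libraries were below the control mean, and the groups overlapped. The log2 difference was -1.96 (SE 0.537, adjusted p = 0.144 by edgeR, 0.0286 by DESeq2), and without control 1 it was -1.31 (adjusted p = 0.369). In females the lowest, median and highest were 0.373, 1.12 and 1.73 CPM in controls and 0.237, 0.472 and 0.793 CPM in knockout-labelled libraries. There all 6 were below the control mean, and the difference was -0.95 (SE 0.530, adjusted p = 0.554).

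The mean of the 2 Wnt2b effects was -1.45 (SE 0.377, adjusted p = 0.0697 by edgeR, 0.00981 by DESeq2). It was called by edgeR without male control 3 (-1.55, adjusted p = 0.0391) or without male knockout-labelled library 3 (-1.70, adjusted p = 0.0409). The mesothelial sum was 16.7 to 122 CPM in male controls and 6.00 to 28.0 CPM in the male knockout-labelled libraries, and 9.98 to 105 against 8.73 to 21.0 CPM in females. Of the 12 markers 11 were tested, all 11 had estimates below 0 in the mean of both sexes, and 3 were called lower, Krt19 (-2.12, adjusted p = 0.0262), Upk1b (-1.85, adjusted p = 0.0333) and Upk3b (-1.52, adjusted p = 0.0439). Per 100 CPM of that sum, Wnt2b stood at 2.696 to 5.80 CPM in male controls and 1.97 to 4.36 CPM in male knockout-labelled libraries, with medians of 4.04 and 2.84. In females it stood at 0.881 to 4.57 CPM in controls and 2.48 to 5.33 CPM in knockout-labelled libraries, with medians of 3.42 and 3.71 in the opposite order. The part of mesothelium in the adipocyte values was not tested.

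Wnt11 and Wnt5b had estimates of opposite sign in the 2 sexes. Wnt11 had a lowest, median and highest level of 1.81, 2.46 and 2.99 CPM in male controls, and stood at 5.33, 3.25, 4.20, 4.403 and 1.72 CPM in male knockout-labelled libraries (0.57, SE 0.275, adjusted p = 0.382). In females it stood at 1.63, 2.79 and 3.66 CPM in controls and at 0.794, 1.33 and 3.32 CPM in knockout-labelled libraries (-0.64, SE 0.274, adjusted p = 0.397). In males 4 of 5 knockout-labelled libraries were above the control mean, and in females 5 of 6 were below it. Wnt5b stood at 1.53, 2.38 and 2.99 CPM in male controls and at 4.36, 3.25, 3.66, 2.68 and 3.25 CPM in knockout-labelled males (0.52, SE 0.247, adjusted p = 0.373), with -0.44 (SE 0.246, adjusted p = 0.559) in females. The test of the sex difference itself gave -1.21 (SE 0.388, unadjusted p = 0.00464, adjusted p = 0.395) for Wnt11 and -0.95 (SE 0.349, unadjusted p = 0.0116, adjusted p = 0.433) for Wnt5b. Of 14227 genes 0.0141% were called for that difference, 1262 had an unadjusted p below 0.05, and 0 of 6 members were called by edgeR or DESeq2.

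Within each sex, the estimates of Wnt5a, Wnt9a and Wls were nearer to 0 than those of Wnt11 and Wnt5b. Wnt5a was at 9.13 to 11.0 CPM in male controls and 10.2 to 20.4 CPM in knockout-labelled males (0.41, SE 0.169, adjusted p = 0.307), and its estimate in females was 0.26 (SE 0.160, adjusted p = 0.598). The mean of both was 0.34 (SE 0.117, unadjusted p = 0.00814, adjusted p = 0.172), where that of Wnt11 was -0.04 and that of Wnt5b 0.04. Wls was at 113 to 122 CPM in male controls and 102 to 114 CPM in knockout-labelled males (-0.16, SE 0.0836, adjusted p = 0.413), and -0.11 (SE 0.0796, adjusted p = 0.701) in females. The mean of both Wls effects was -0.13 (SE 0.0577, unadjusted p = 0.0302, adjusted p = 0.277). All 5 male and all 6 female knockout-labelled libraries were below their control mean of Wls in CPM. Wnt9a gave 0.34 (SE 0.197, adjusted p = 0.472) in males and -0.02 (SE 0.191, adjusted p = 0.987) in females.

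**Figure D4:**
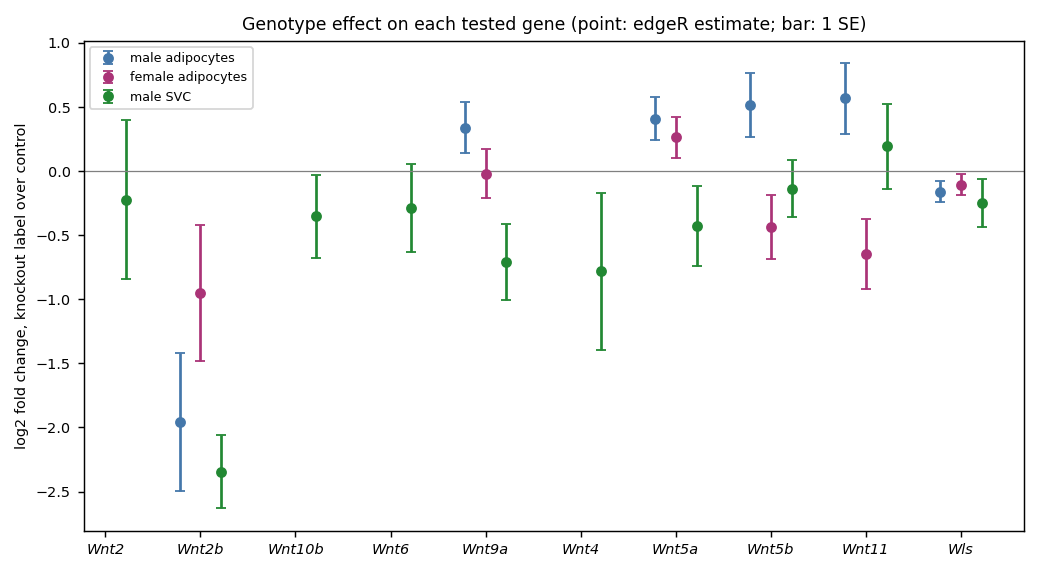
Log2 fold change of knockout-labelled over control libraries (points, edgeR) with 1 SE (bars) for each tested gene in male adipocytes, female adipocytes and male SVC; Wnt2, Wnt10b, Wnt6 and Wnt4 were not tested in adipocytes. Wnt2b is below 0 in each, from -2.35 in SVC to -0.95 in female adipocytes, and Wnt11 and Wnt5b lie on opposite sides of 0 in male and female adipocytes.

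Wnt2, Wnt4, Wnt6 and Wnt10b did not pass the filter in adipocytes, and their values come from a fit of all 28560 genes with a count. Their genotype effects had adjusted p of 0.420 to 1 in either sex. Wnt10b had 9, 2, 12, 8, 1 and 4 counts in female controls and 3, 0, 2, 2, 0 and 1 in female knockout-labelled libraries, a log2 difference of -1.98 (SE 0.675, adjusted p = 0.420). All 6 knockout-labelled libraries were below the control mean, and the ranges overlapped.

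The comparison of female with male control adipocytes called 43.8% of 14227 genes, 23.7% higher and 20.1% lower in females. Of the 6 tested members 1 was called, Wnt5a, which was higher in females (0.41, SE 0.162, adjusted p = 0.0458), at 10.5, 12.9 and 18.3 CPM (lowest, median, highest) against 9.13, 10.4 and 11.0 CPM in males. All 6 female libraries were above the male mean, with overlap. The call was lost with DESeq2 (adjusted p = 0.0676) and in 11 of 12 fits that left out 1 library (adjusted p of 0.0299 to 0.164 over the 12). Wnt2b differed by -1.01 (SE 0.473, adjusted p = 0.0873), and without male control 3 it was called (-1.24, adjusted p = 0.0330).

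Wnt10b and Wnt2 had more counts in female than in male control adipocytes, at levels below the filter. A call was common in this comparison, at 43.8% of the 14227 genes that passed the filter. The share called without the filter is not given here. Wnt10b had 1 to 12 counts in each of the 6 female controls and 0 in all 6 male ones (adjusted p = 0.000224 without the filter, and 0.000140 by DESeq2). Its mean in female controls was 0.279 CPM. Wnt2 had 2 to 5 counts in female controls and 0 to 2 in male ones, so the counts met at 2 and the CPM values, at 0.0920 and 0.0904, nearly did (2.71, SE 0.766, adjusted p = 0.00929 without the filter). Progenitor markers summed to 835 to 1348 CPM in female and 460 to 674 CPM in male control adipocytes, and 7 of 11 were called higher. Subcutaneous depot markers summed to 32.9 to 42.1 CPM in female and 10.7 to 14.0 CPM in male controls. Sex, depot and progenitor content cannot be told apart here.

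Other genes of the pathway were summarised from lists of Wnt secretion factors (17 genes), receptors (23), secreted inhibitors (12), targets and feedback genes (17) and the other Wnt ligands (10). Of the inhibitors 11 and of the targets 15 matched a symbol in the count table, as did all genes of the other lists. In the genotype comparisons of either sex and of SVC, 0 genes of these lists were called by edgeR. In the mean of both sexes 1 was, the secreted Frizzled-related inhibitor Sfrp2, which fell (-1.58, SE 0.363, adjusted p = 0.0344). Axin2, the feedback gene most used as a readout of β-catenin signalling, had a mean effect of -0.65 (SE 0.174, adjusted p = 0.0816). The smallest p among secretion factors belonged to Tmed5, a cargo receptor of the early secretory pathway (0.32, SE 0.105, adjusted p = 0.156). The median over the 16 tested secretion factors was -0.01, against 0.01 over all genes.

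Between fractions, secretion factors were called in both directions under TMM scaling. In controls 7 of 17 were higher in adipocytes and 3 lower, where 32.8% of all genes were called higher and 44.2% lower. Their median was 0.16 on the log2 scale, smaller than the shift of all genes by library-total scaling (-0.56). Their summed level was 1468 to 1595 CPM in male control adipocytes and 1641 to 1689 CPM in control SVC. No direction is therefore given for the list. The glypicans Gpc6 (-6.39, adjusted p = 6.62e-11) and Gpc3 (-5.93, adjusted p = 8.70e-11), cell-surface proteoglycans that bind Wnt, were lower, and the endosomal flippase Atp9a was higher (2.99, adjusted p = 1.08e-09). Of 20 receptors tested 13 were lower and 4 higher, led by the Wnt7 co-receptors Adgra2 (-5.11) and Reck (-4.04) and the Wnt5a receptor Ror1 (-4.86), all 3 lower. Of 7 inhibitors 6 were lower, among them Sfrp4 (-6.75), Dkk2 (-6.38) and Sfrp1 (-6.20). Of 15 targets 9 were lower, among them Tcf7 (-6.60) and Ccnd1 (-3.14), and 3 higher, among them Apcdd1 (5.08). In the fit of adipocytes alone, 18 receptors, 5 inhibitors and 9 targets passed the filter. Genes that passed through SVC alone may therefore be among those counted lower. Wnt7b was the one other ligand above the filter, which it did not pass in the fit of adipocytes alone. It was lower in adipocytes (-4.85, adjusted p = 0.000354). Its control SVC level rested on 1 library, SVC control 1 with the high epididymis markers, at 3.86 CPM where the others had 0.338 and 0.465 CPM.

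In female against male control adipocytes, where 23.7% of all genes were called higher and 20.1% lower, 5 secretion factors were higher and 6 lower of 16 tested, led by Dop1b, a partner of retromer-linked Wls sorting (-1.17, adjusted p = 1.05e-06), and Tmed5 (0.81, adjusted p = 0.000123). Of 18 receptors 3 were higher and 2 lower. The inhibitors Sfrp4 (3.38, adjusted p = 5.03e-06) and Sfrp2 (1.38, adjusted p = 0.0118) were higher. Of 9 targets 4 were higher, among them Tnfrsf19 (3.27), and 1 lower.

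Across the 23 adipocyte libraries with group means removed, the genes most like each member in level were named by Pearson's r of log2(CPM + 0.5). The adipocyte libraries share depth and preparation, so these values are descriptions. Wnt2b was most like Flrt2 (r = 0.877), Wt1 (0.864) and Aebp1 (0.863). Wt1 was in both the mesothelial and the visceral depot marker lists. Wnt11 was most like Rtn2 (0.908) and Mrc2 (0.880), Wnt9a most like Fam92a (0.891) and Lztfl1 (0.890), Wnt5b most like Nars (0.865) and Fgf1 (0.834), and Wnt5a most like Hdac9 (0.858) and Bicdl1 (0.817). Wls was most like Stt3a, an oligosaccharide transferase of the endoplasmic reticulum (0.864), and Nfix (0.817). Among the members Wnt5b and Wnt11 were most alike (0.713), and Wls had values of -0.466 to -0.0653 with the 5 ligands.

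Start-site windows of 9 of the 10 members, 12 windows in all, were in the RefSeq table (GRCm38.p6, 250 bases before to 50 after the start). The TCF/LEF core ATCAAAG, which binds the partners of β-catenin, was searched on both strands together with TATAAA. The core occurred in 3.73% of all 32851 windows and TATAAA in 13.6%. Among the members the core was found once in 1 window of Wnt11 and once in 1 of Wnt5b, and TATAAA once, in that window of Wnt11. The 250 bases before the start are shown for Wnt2b, the member with the smallest p in the SVC genotype comparison, at chr3:104961710-104961959 on the minus strand, and for Wnt11 at chr7:98834862-98835111 on the plus strand, with matches in capitals.
Wnt2b: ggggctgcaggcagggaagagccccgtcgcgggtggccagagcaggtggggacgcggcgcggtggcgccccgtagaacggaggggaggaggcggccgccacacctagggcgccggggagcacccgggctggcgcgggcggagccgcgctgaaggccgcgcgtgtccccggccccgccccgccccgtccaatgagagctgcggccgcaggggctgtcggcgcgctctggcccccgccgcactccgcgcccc
Wnt11: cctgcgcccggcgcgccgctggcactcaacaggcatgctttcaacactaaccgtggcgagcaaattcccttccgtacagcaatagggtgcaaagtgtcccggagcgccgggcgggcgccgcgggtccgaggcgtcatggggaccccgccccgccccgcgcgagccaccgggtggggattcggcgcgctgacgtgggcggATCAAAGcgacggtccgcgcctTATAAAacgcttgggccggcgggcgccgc
The whole Wnt2b window held 43 CG dinucleotides, more than 97.4% of windows, and neither motif. The Wnt11 window held 45 CG dinucleotides, with the core upstream of TATAAA. A match is a run of letters and not a measured site.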

How the data were processed

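The libraries were strand-specific mRNA sequencing, per the labels' protocols. The authors deposited a table of counts per gene and a table of regularised log2 values (rlog of DESeq2, per the file headers). The genome build was mm39, with STAR 2.7.11a, FastQC 0.12.1 and DESeq2 among the tools, per the submitters' processing notes. The tool and annotation that assigned reads to genes, and whether it used strand, are items not given in the sources used here. Both the members and the gene lists were chosen with earlier results of these data known.

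From the deposited counts, edgeR 4.0.16 in R 4.3.3 gave quasi-likelihood F-tests with TMM scaling, filterByExpr (minimum count 10) and robust dispersions. Benjamini-Hochberg values were taken over all genes tested and called below 0.05. The 23 adipocyte, 7 SVC and 18 male libraries were 3 separate fits. Levels are CPM of the library total, and per-length levels divide by GENCODE M21 exon length (GRCm38). All 10 members are named, and from each list up to 3 called genes of smallest p, or the 1 of smallest p. Marker genes were named beside the results that they moved with, after their values were seen. Alternatives were DESeq2 1.42.0, its size factors, no filter, 2 groups alone, replicate blocks, leaving out each library and, added after seeing the data, library-total scaling. The log2 values served as a check of direction, which was the same in 46 of 48 member comparisons. No 2 libraries of a group agreed within counting noise (lowest chi-square per degree of freedom 12.9). The tests were also run on simulated counts, drawn independently around the overall mean of each gene with changes added to some genes. That setting lacks the fraction differences and any pairing of libraries, and no result above rests on it.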

Additional observations from a re-analysis of the deposited data

Results flagged for a closer look

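Single libraries that stood far from the rest of their group were looked for in 36 combinations of member and group. Each combination had at least 10 counts in 1 library, and chance flags about 1 in 20. Control SVC, with 3 libraries, was left out of this search. Wnt2b in male adipocyte control 1 stood at 5.65 CPM, where the other 5 controls were at 0.450 to 1.86 CPM. That library also had the highest mesothelial marker sum of its group, 122 CPM, where the others had 16.7 to 55.4 CPM. Wnt4 in female adipocyte control 4 stood at 0.509 CPM (11 counts), where the other 5 were at 0 to 0.0939 CPM. Its mesothelial sum of 105 CPM and its mammary and skin epithelial sum of 49.9 CPM were the highest of that group.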

How the results depend on the processing

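Of the 387 member fold changes refitted under another setting, 370 kept direction and call. The counts of genes called differed with DESeq2, which called 163 in male adipocytes (10 by edgeR), 208 in females (67), 355 in the mean of both sexes (108), 25 in their difference (2), 65 in SVC (0) and 23 in the difference between fractions (0). It called 1 member, Wnt2b, in male adipocytes, in the mean of both sexes and in SVC, and 2 members in female against male controls, Wnt2 and Wnt10b. The fit without the filter also called 2 there, and 1 gene for the sex difference. With DESeq2's size factors in edgeR 0 members were called there. The 2 groups fitted alone called 6 genes in males and 26 in females.

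Replicate numbers in the titles showed no steady pairing. Between female control and knockout-labelled libraries of the same number, r of the deviations from group means was -0.0296 to 0.631. Female replicates 4 (0.513) and 5 (0.631) were closest to their own number and the others were not. In male adipocytes and in SVC no library was closest to its own title number across genotypes. For numbers in column names, which link fractions, r of the deviations was 0.145 to 0.251 in 5 of 6 pairs, each closest to its own number, and -0.0710 in the other. That is a hint of pairing from the data and short of every pair being above 0.1, so no block was used in the fits reported. A replicate block by title number called 17 genes in males, 180 in the mean of both sexes, 1 in their difference and 1 in SVC, and changed the sign of Wnt9a in females (0.0107). A replicate block by column number turned Wnt6 in the difference between fractions (0.12) and ended the call of Wls in knockout-labelled males (0.45, adjusted p = 0.0522). Other calls of members held under the blocks.

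Scaling by library total turned Wls in the difference between sexes (-0.0462), in female against male controls (0.000769) and between fractions (-0.28 in controls, -0.13 in knockout-labelled males). The shift of all genes by this scaling was also above 0.1 in size for the sex difference (-0.10).

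Leaving out 1 library at a time, genes called ranged over 4 to 332 in males (332 without knockout-labelled library 5, 55 without control 2, 4 without control 1, 6 without knockout-labelled library 4), 32 to 89 in females, 60 to 246 in the mean of both sexes, 0 to 22 in their difference, 5548 to 6325 in female against male controls, 0 to 1 in SVC, 12259 to 13482 and 12778 to 13060 between fractions in controls and knockout-labelled males, and 0 to 1 in their difference. Members called ranged over 0 to 1 in the mean of both sexes and in female against male controls, 9 to 10 and 8 to 9 between fractions, and stayed at 0 in the other genotype comparisons. Signs turned within these ranges: in females Wnt9a (-0.133 to 0.0828); in the mean of both sexes Wnt11 (-0.169 to 0.0546) and Wnt5b (-0.0439 to 0.0998); in the sex difference Wnt5a (-0.230 to 0.0290); in female against male controls Wnt5b (-0.181 to 0.0815) and Wnt9a (-0.0377 to 0.177). In SVC they were Wnt2 (-0.64 to 0.11), Wnt5b (-0.293 to 0.0218) and Wnt11 (-0.11 to 0.34), and in the difference between fractions Wnt6 (-0.51 to 0.21), Wnt2b (-0.13 to 1.00), Wls (-0.11 to 0.16) and Wnt2 (-0.57 to 1.38). The cause of these changes was not tested. Genes under about 10 counts per library, such as Wnt2, Wnt4, Wnt6 and Wnt10b in adipocytes, are at the limit of the depth.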
